A study of Mus musculus with 8 samples.

Results

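Klk6-positive mature oligodendrocytes of the mouse hippocampus were taken from single-cell RNA data as cells that carried transcripts of finished myelin together with Klk6. They were chosen by their measured counts. A barcode belonged when it had at least 500 detected genes, under 15% mitochondrial unique molecular identifiers (UMIs, each a counted RNA molecule), at least 1 UMI of at least 3 of Mog, Mag, Ermn, Aspa, Mal and Cldn11, at least 2 UMIs of Klk6, and no UMI of Pdgfra, Aqp4 or Cldn5. The rule found 227 cells among 6321 mature oligodendrocytes, 12954 hippocampal cells past the filters and 61745 barcodes of all gene expression libraries of the series. Of these 227 cells, 134 came from the Foxp3-DTR- library and 93 from the Foxp3-DTR+ library. The other mature oligodendrocytes were 5814 cells without a Klk6 UMI, called Klk6-zero here, and 280 cells with exactly 1.

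The hippocampal data were 1 library for each genotype, each from the pooled CD45- Thy1- cells of 2 perfused mice. The Foxp3-DTR+ mice carry the diphtheria toxin receptor in cells that express Foxp3, the factor that defines regulatory T cells, and the Foxp3-DTR- mice do not. Mice of both genotypes were given diphtheria toxin. The dose, the time after injection, age and sex are not given in the sources used here. The CD45- gate leaves out regulatory T cells, so that their loss could not be checked in these libraries. With 1 library for each genotype, genotype and library cannot be told apart.

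Oligodendrocytes wrap axons in myelin, and mature ones express the proteins that compact it and hold its edges. Klk6 encodes kallikrein 6, a secreted serine protease that is abundant in oligodendrocytes of the spinal cord and brainstem, where it can cut extracellular and myelin proteins and act on protease-activated receptors. In mouse brain atlases Klk6 marks a mature oligodendrocyte state, together with Hapln2 and Anln, while Opalin, Ptgds and Il33 are typical of other mature states.

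The Klk6 gene (ENSMUSG00000050063.18) lies at chr7:43824499-43832030 on the plus strand of GRCm38 in the GENCODE M21 annotation. S100b, which had the highest log2 ratio of the tested genes at 100 CPM or more in both libraries, lies at chr10:76253853-76261159 on the plus strand. The promoters of 4 genes are shown. In sums over cells S100b and Hapln2 were higher and Opalin lower in the members, and Klk6 chose the members. Each window runs from 250 bases before to 50 bases after a transcription start in RefSeq's tables for GRCm38.p6, 5′ to 3′ on the gene's own strand. The windows are chr7:43824294-43824593 (plus strand) for the first of 2 Klk6 starts, chr10:76253586-76253885 (plus strand) for S100b, chr3:88027462-88027761 (minus strand) for Hapln2 and chr19:41077064-41077363 (minus strand) for Opalin. Capitals mark matches, on either strand, to ACAAAG, a core bound by SOX factors, or to CTGGCAC or CTGGTAC, a core bound by the myelin factor MYRF.
Klk6: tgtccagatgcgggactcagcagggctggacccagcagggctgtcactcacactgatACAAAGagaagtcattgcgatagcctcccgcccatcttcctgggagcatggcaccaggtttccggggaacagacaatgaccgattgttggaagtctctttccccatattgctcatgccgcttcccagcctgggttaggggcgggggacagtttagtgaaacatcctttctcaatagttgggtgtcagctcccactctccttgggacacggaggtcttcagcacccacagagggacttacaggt
S100b: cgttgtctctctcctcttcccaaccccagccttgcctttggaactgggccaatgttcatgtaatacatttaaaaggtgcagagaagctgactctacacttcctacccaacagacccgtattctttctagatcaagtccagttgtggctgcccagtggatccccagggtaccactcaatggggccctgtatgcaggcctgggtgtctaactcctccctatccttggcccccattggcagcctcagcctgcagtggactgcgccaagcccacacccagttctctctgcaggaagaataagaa
Hapln2: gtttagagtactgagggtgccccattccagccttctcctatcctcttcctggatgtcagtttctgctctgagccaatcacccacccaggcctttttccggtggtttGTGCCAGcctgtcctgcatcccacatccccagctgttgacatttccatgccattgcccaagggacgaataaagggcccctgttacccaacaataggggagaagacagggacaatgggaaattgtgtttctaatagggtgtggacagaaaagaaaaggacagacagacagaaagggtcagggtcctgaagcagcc
Opalin: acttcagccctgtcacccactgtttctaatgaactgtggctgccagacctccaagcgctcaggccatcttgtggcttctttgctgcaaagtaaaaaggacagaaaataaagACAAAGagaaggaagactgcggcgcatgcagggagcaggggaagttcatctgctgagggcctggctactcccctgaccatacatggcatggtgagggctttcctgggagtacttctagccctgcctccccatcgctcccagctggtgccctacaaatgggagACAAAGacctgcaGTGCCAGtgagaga
The SOX core was found 1 time in the Klk6 window and 2 times in that of Opalin. The MYRF core was found 1 time each in the windows of Hapln2 and Opalin, and the S100b window held neither. The windows of the second Klk6 start, of Enpp6 and of the 2 Il33 starts were searched too, are not shown, and held neither. Of 32851 promoter windows of this length, 18.7% held the SOX core and 7.1% the MYRF core. A match is a description of these letters only.

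The rule asked for 3 of 6 oligodendrocyte markers, so that their detection is a description: all 6 were found in 99.3% and 100% of members, and in 95.8% and 93.3% of the shallower Klk6-zero cells. No member was marked as a doublet by Scrublet, which can miss doublets of like cells, such as paired mature oligodendrocytes. The deepest members had 80042 and 100571 UMIs, and whether such pairs were among the members was not tested. Hapln2 and Anln were not used by the rule but were named beforehand as markers of these cells, so that their levels are a description and no check of the label. Hapln2, a link protein of the nodal matrix, stood at 461 against 244 CPM (counts per 1e6 UMIs of the summed cells) in members and Klk6-zero cells of the Foxp3-DTR- library, and at 498 against 263 CPM in the other. Anln, a scaffold protein that organises septins in myelin, stood at 558 against 308 CPM and 589 against 292 CPM. Both markers were thus higher in the members of both libraries. Among markers of other cells, 4 fibroblast and 3 T cell markers were at 0 in the members. In the Klk6-zero cells they summed to 0.995 and 0.479 CPM and to 0.0321 and 0 CPM, so that these zeros do not set the members apart. The 6 markers of oligodendrocyte precursors summed to 10.9 and 15.5 CPM in the members and 28.2 and 44.0 CPM in the Klk6-zero cells, with Pdgfra at 0 by the rule. The 6 astrocyte markers summed to 157 and 162 CPM in the members and 147 and 176 CPM in the Klk6-zero cells, higher in the members of 1 library and lower in those of the other. The 6 microglia markers summed to 20.6 and 11.2 CPM in the members and 18.1 and 15.5 CPM in the Klk6-zero cells and the 5 pericyte markers to 2.62 and 1.24 CPM in the members and 23.5 and 32.1 CPM in the Klk6-zero cells.

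The libraries held 53484704 UMIs in 8220 barcodes (Foxp3-DTR-) and 35814655 UMIs in 6548 barcodes (Foxp3-DTR+), and 18 barcodes occurred in both, 0.219% and 0.275% of each. Members were deeper than their neighbours. Their median was 12074 UMIs in the Foxp3-DTR- and 13255 UMIs in the Foxp3-DTR+ library, against 7465 and 6050 UMIs in Klk6-zero cells. The comparisons of genes were therefore repeated against Klk6-zero cells matched in UMIs, 5 for each member, a choice made after seeing the data.

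Klk6 itself chose the cells, and its values are a description. In the Foxp3-DTR- library 78 members had 2 to 3 Klk6 UMIs, 41 had 4 to 7 and 15 had 8 or more, up to 31. In the Foxp3-DTR+ library the numbers were 54, 29 and 10, up to 36. Most members thus sat near the threshold, 51 and 38 of them at exactly 2 UMIs, while 160 and 120 cells lay just outside it with 1 UMI. The members held 68.7% and 74.9% of all Klk6 UMIs of the cells past the filters. Astrocytes, which should lack the gene, were gated by astrocyte markers and by no UMI of Mog, Ermn, Pdgfra or Cldn5. Of them 0 of 923 and 3 of 1022 cells had a Klk6 UMI, at median depths of 3915 and 3136 UMIs. The gate also leaves out cells with free Mog or Ermn RNA, so that these counts can understate the background. All cells past the filters outside the mature oligodendrocytes held 13.2% and 4.89% of the Klk6 UMIs. The count of 0, taken as fewer than 3 cells of 923, allows a share of up to 0.325% of astrocytes with a UMI, and the upper end of the two-sided exact Clopper-Pearson 95% interval is 0.399%, both for counting error only.

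The share of Klk6-positive cells was close to equal in the libraries. It was 3.61% of 3717 mature oligodendrocytes in the Foxp3-DTR- library (exact Clopper-Pearson 95% interval 3.03 to 4.26) and 3.57% of 2604 in the Foxp3-DTR+ library (2.89 to 4.36). The log2 ratio, Foxp3-DTR+ over Foxp3-DTR-, was -0.01, with an interval of -0.41 to 0.38 for counting error only, and differences inside it were not detectable at this number of cells. There is no test between genotypes, since each has 1 library.

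The share rose with the depth of the cell in both libraries. In cells of 4000 to 8000 UMIs it was 1.67% and 1.71%, in cells of 8000 to 16000 UMIs 3.94% and 5.79%, and in cells over 16000 UMIs 12.5% and 13.5%. Below 4000 UMIs it was 3 of 279 cells and 0 of 444. After thinning to 4000 UMIs, 1.43% of 3438 and 1.48% of 2160 cells kept at least 2 Klk6 UMIs. The number of cells called Klk6-positive thus depends on depth and on the cutoff, while the intervals of the libraries overlapped in each of the 4 ranges of depth.

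**Figure D1:**
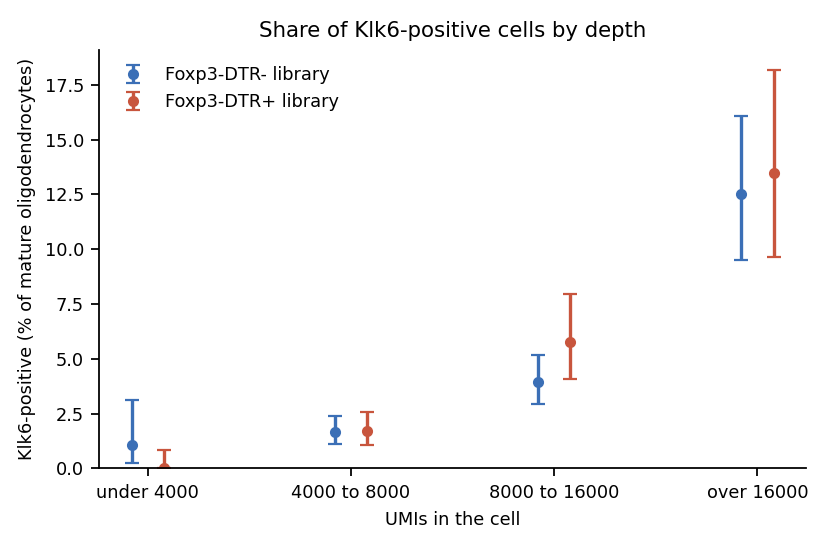
Share of mature oligodendrocytes with at least 2 Klk6 UMIs (%, vertical axis) in 4 ranges of UMIs per cell, for the Foxp3-DTR- and the Foxp3-DTR+ library; points are shares and bars exact 95% intervals for counting error. The share climbs from 1.67% and 1.71% at 4000 to 8000 UMIs to 12.5% and 13.5% over 16000 UMIs.

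Klk6-positive cells were then compared with Klk6-zero cells, as sums of UMIs within each library, to see which other genes differed between them. Of 12479 genes tested with edgeR's quasi-likelihood test, with library as a block, 943 (7.56%) passed an adjusted p of 0.05: 523 (4.19%) were higher and 420 (3.37%) lower in Klk6-positive cells. The direction was the same in both libraries for 890 of the 943, and 760 passed with the same sign against cells matched in UMIs. Fewer of the 943 passed in cells of 4000 to 10000 UMIs, 385, and after thinning to 2000 UMIs, 227, with fewer genes tested. In these settings 27 and 22 of the 943 had the other sign. Without the 1 cell that held the most UMIs of the gene in each sum, also added after seeing the data, 820 passed. Scaled by library totals alone in place of TMM, 704 genes were higher and 337 lower, 67.6% of calls against 55.5%. DESeq2 called 127 higher and 91 lower, and edgeR with no replicate block 109 and 45. With the block, these p-values measure how far the ratio of members to Klk6-zero cells varied between 2 libraries. That spread had 1 residual degree of freedom and was shared over genes, at a common dispersion of 0.000837. The 2 libraries also differ in genotype, so that the p-values do not measure the spread over replicate animals.

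S100b, a calcium-binding protein best known from astrocytes and also made by oligodendrocytes, set the cells apart most among genes at 100 CPM or more. Its level was 862 against 134 CPM in members and Klk6-zero cells of the Foxp3-DTR- library, and 844 against 128 CPM in the Foxp3-DTR+ library. The edgeR log2 ratio was 2.66 (SE 0.05), and within the libraries it was 2.69 (counting interval 2.61 to 2.77) and 2.72 (counting interval 2.62 to 2.82). The difference was thus of the same size in both libraries. In cells thinned to 4000 UMIs, 87.8% of 131 and 83.9% of 93 members had an S100b UMI, against 16.5% of 3150 and 18.9% of 1955 Klk6-zero cells. Among mature oligodendrocytes with at least 6 S100b UMIs, 27.8% of 381 and 29.4% of 248 were members, against 0.227% of 2648 and 0.387% of 1808 of those with none. Most S100b-rich cells were therefore not members, and 6 and 7 members had no S100b UMI.

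Enpp6, a choline phosphodiesterase often used to mark newly forming oligodendrocytes, came next. It stood at 252 against 92.0 CPM and 215 against 73.8 CPM, with a log2 ratio of 1.44 (SE 0.07, edgeR adjusted p = 4.35e-90). Pmp22, a membrane protein of peripheral myelin, stood at 482 against 179 CPM and 503 against 185 CPM, with a log2 ratio of 1.39 (SE 0.05). The rule for naming genes required the same direction in both libraries, and the factors were nearly the same. The 6 markers of differentiating oligodendrocytes, Enpp6 among them, summed to 603 and 513 CPM in the members. In the Klk6-zero cells the sums were 487 and 400.4 CPM. Neu4 was at 0 in the Foxp3-DTR+ members. The gap of Enpp6 alone was larger than that of the sum in both libraries, so that the other markers summed to less in the members.

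Plin3, Ldhb and Selenop completed the 6 highest. Plin3, a coat protein of lipid droplets, stood at 338 against 122 CPM and 228 against 97.2 CPM and had a log2 ratio of 1.32 (SE 0.06). Ldhb, a subunit of lactate dehydrogenase, stood at 244 against 87.4 CPM and 179 against 88.4 CPM and had a log2 ratio of 1.24 (SE 0.07). Its sister subunit Ldha, at 42 and 33 UMIs in members, had a log2 ratio of -0.83 (SE 0.17, edgeR adjusted p = 2.95e-05), so that the subunits differed in opposite directions. Selenop, a secreted selenium carrier, stood at 1155 against 458 CPM and 862 against 379 CPM, with a log2 ratio of 1.22 (SE 0.04).

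The other 9 of the 15 genes with the highest log2 ratio were the organic anion transporter gene Slco3a1 (1.21), the deubiquitinase gene Usp31 (0.88), Rasgrp3 (0.78), which activates Ras proteins, the mitochondrial carrier gene Slc25a27 (0.78), Mtss1 (0.76), which bends membranes, Mapre2 (0.75), which binds microtubule ends, the proteoglycan gene Spock3 (0.75), Tppp3 (0.72), which binds tubulin, and the noncoding RNA gene Kcnq1ot1 (0.71). Kcnq1ot1 lies antisense to Kcnq1 and the use of strand in the counting is not given in the sources used here, so that its value is uncertain. The members were higher in both libraries in each of these 9 genes, which the rule for naming genes required.

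**Figure D2:**
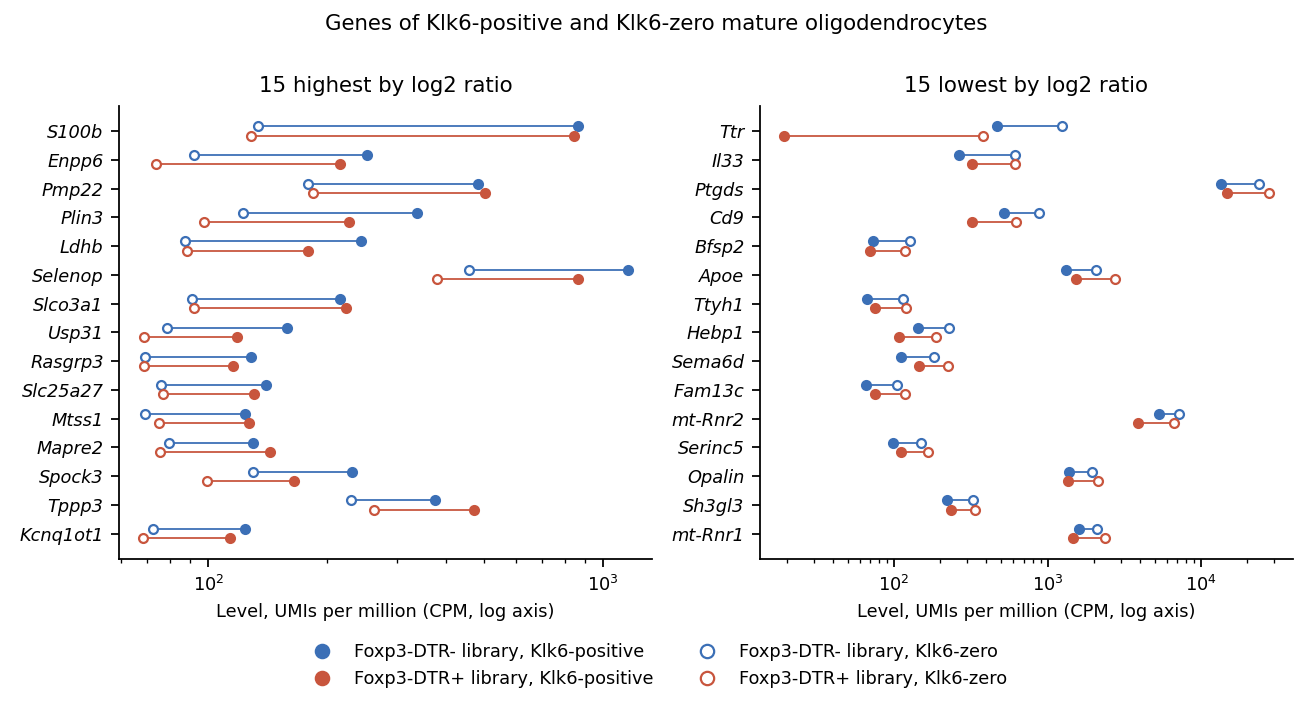
Levels (CPM, log axis) of the 15 genes with the highest and the 15 with the lowest log2 ratio, in Klk6-positive and Klk6-zero mature oligodendrocytes of the Foxp3-DTR- and Foxp3-DTR+ libraries; each point is 1 sum over cells. S100b spans the widest gap among the genes that were higher, from 134 to 862 and from 128 to 844 CPM, and Ttr is the gene in which the libraries differ most.

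Among the genes that were lower, Il33, an alarmin cytokine held in the nucleus, stood at 266 against 614 CPM in members and Klk6-zero cells of the Foxp3-DTR- library and at 321 against 613 CPM in the Foxp3-DTR+ library. Its log2 ratio was -1.13 (SE 0.05, edgeR adjusted p = 2.41e-100). Ptgds, a prostaglandin D synthase, stood at 13581 against 23856 CPM and 14679 against 27585 CPM, a log2 ratio of -0.91 (SE 0.03). In thinned cells 35.9% and 44.1% of members had an Il33 UMI, against 77.6% and 77.0% of Klk6-zero cells. Opalin, a glycoprotein of the myelin membrane, stood at 1381 against 1941 CPM and 1363 against 2144 CPM, a log2 ratio of -0.62 (SE 0.04). Cd9, a tetraspanin of the cell surface, stood at 523 against 875 CPM and 322 against 619.5 CPM, and Apoe, a lipid carrier, at 1316 against 2084 CPM and 1544 against 2740.5 CPM. Their log2 ratios were -0.87 (SE 0.05) and -0.79 (SE 0.04).

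The size of these differences depended on the depth of the cells. Among cells of 4000 to 10000 UMIs, with 49 and 31 members, Il33 stood at 60.3 against 677 CPM and 77.6 against 667 CPM, and its log2 ratio was -3.43. The ratios were -2.93 for Ptgds, -2.04 for Cd9, -1.97 for Opalin and -1.74 for Apoe. S100b, at 1680.4 against 111 CPM and 1507 against 119.6 CPM, had a ratio of 3.71. Of the 15 highest and 15 lowest genes, 18 had a ratio over 1.5 times further from level in this range than over all cells, and 0 had one over 1.5 times closer. Against Klk6-zero cells matched in UMIs, with all members kept, none of the 30 moved by over 1.5 times, and Il33 stood at -0.96. The cause of the larger differences in cells of this range was not tested.

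The genes Bfsp2 (-0.82), a lens filament protein gene, Ttyh1 (-0.79), Hebp1 (-0.77), whose protein binds haem, the semaphorin gene Sema6d (-0.73), Fam13c (-0.70), Serinc5 (-0.65) and the endophilin gene Sh3gl3 (-0.59) were lower too. The ribosomal RNAs of the mitochondrion, mt-Rnr2 (-0.65) and mt-Rnr1 (-0.59), were lower as well, but against cells matched in UMIs their log2 ratios were -0.17 and -0.13. Among cells of 4000 to 10000 UMIs the call of mt-Rnr1 was lost (edgeR adjusted p = 0.79).

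Ttr, the thyroid hormone carrier made by the choroid plexus, had the lowest log2 ratio, -1.85, at 468 against 1238 CPM and 19.2 against 379 CPM. A single member held 85.4% of the Ttr UMIs of the Foxp3-DTR- members, and without the richest cell of each sum the log2 ratio was -3.77. In thinned cells 22.1% and 14.0% of members had a Ttr UMI, against 25.7% and 8.70% of Klk6-zero cells. The share was thus lower in the members of 1 library and higher in those of the other. A Foxp3-DTR- cluster of 36 mature oligodendrocytes with 0 members held Ttr at 101870 CPM, against 106 CPM in the other cells. In a Foxp3-DTR+ cluster of 101 cells, 2 of them members, it stood at 11468 against 24.4 CPM. The 4 choroid plexus markers, Ttr among them, summed to 2159 and 1883 CPM in the members. In the Klk6-zero cells the sums were 2898 and 2173 CPM. The gap of Ttr alone was larger than that of the sum in both libraries, so that the other markers together were not lower. In the Foxp3-DTR+ members Folr1 and Kl were at 0, and nearly all of the sum was Enpp2, the remaining marker. The 4 red blood cell markers summed to 13.1 and 26.0 CPM in the members and 297 and 149.7 CPM in the Klk6-zero cells. The part of RNA from those cells in the genes that were lower was not tested.

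Lists of related genes were described by how many of their members passed the test, beside 4.19% higher and 3.37% lower and a median log2 ratio of -0.01 over all genes tested. Of 10 tested genes reported for Klk6-expressing white-matter oligodendrocytes, 8 were higher and 2 lower, with a median of 1.15. Hopx, a homeodomain cofactor, stood at 80.5 against 16.4 CPM and 58.9 against 12.5 CPM, a log2 ratio of 2.23 (SE 0.13). Anxa5, an annexin that binds membranes with calcium, stood at 112 against 35.0 CPM and 90.5 against 28.1 CPM, a log2 ratio of 1.63 (SE 0.10). Beside these and S100b, Mgst3 (1.40), a glutathione transferase gene, Cd59a (0.91), a complement inhibitor gene, Rab37 (2.49, from 20 and 16 UMIs), S100a16 (0.23) and Glul (0.11), the gene of glutamine synthetase, were higher. Dock10 (-0.18) and Wfdc18 (-0.52) were lower, and Dock10 lost its call without the richest cell (edgeR adjusted p = 0.0527).

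Of 13 genes reported for mature oligodendrocytes low in Klk6, 7 were lower and 3 higher, with a median of -0.20. Beside Ptgds, Il33 and Opalin, the lower ones were Qdpr (-0.24), Cryab (-0.20), Jph4 (-0.27) and Ptma (-0.29). Apod, a lipocalin (0.57), Trf, the iron carrier transferrin (0.37), and Selenop (1.22) were higher, so that the list did not differ in 1 direction. Car2, a carbonic anhydrase gene, had a log2 ratio of -0.04 (SE 0.03, edgeR adjusted p = 0.64).

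Genes of myelin proteins went both ways. Of 17 tested, 4 were higher and 6 lower, from -0.87 for Cd9 to 1.39 for Pmp22, with a median of 0.00. Mbp, the gene of myelin basic protein, stood at 3849 against 3647 CPM and 3846 against 3667 CPM, a log2 ratio of 0.03 (SE 0.03, edgeR adjusted p = 0.80). Without the richest cell of each sum, Mbp passed as higher (0.08, edgeR adjusted p = 0.0223). Within the list Pmp22, Omg (0.24), Gpm6b (0.20) and Mobp (0.12) were higher and Opalin, Cd9, Tspan2 (-0.45), Nfasc (-0.27), Cryab and Sirt2 (-0.13) lower, Sirt2 not against matched cells (edgeR adjusted p = 0.50). The markers of the gate, which chose the cells, were near even as a description: Mog stood at 2068 against 1932 CPM and 1829.5 against 1866 CPM and Mag at 3698 against 3530.5 CPM and 4423 against 3999 CPM.

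Of 14 tested transcription factor genes of the lineage, Hopx was higher and Olig2 (-0.50, SE 0.07), Tcf7l2 (-0.49, SE 0.14) and Olig1 (-0.15, SE 0.04) were lower. Olig1 was not called against matched cells (edgeR adjusted p = 0.14). Sox10 and Myrf, which drive the myelin genes, had log2 ratios of -0.04 (SE 0.05) and -0.01 (SE 0.06) and did not pass.

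Cytoskeletal genes were more often higher, 12 of 25 against 3 lower, with a median of 0.11. Tubulin genes and their regulators were among them, with Tubb4b (0.57), Tuba1a (0.36), Stmn1 (0.22) and Tppp3, and so was Gsn (0.36), which severs actin filaments. Septin8 was higher (0.33) and Septin4 lower (-0.17). Of 12 tested S100 and annexin genes 5 were higher, with S100a6 (0.65) and S100a13 (0.24) beside those above. None was called lower by edgeR or DESeq2, and 1 was lower at an unadjusted p under 0.05.

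Of 22 genes of sterol synthesis 9 were higher and 1 was lower, with a median of 0.16. Sqle, which makes squalene epoxide, stood at 71.7 against 45.6 CPM and 75.6 against 46.7 CPM, a log2 ratio of 0.63 (SE 0.11). Hmgcs1 (0.31), Mvk (0.49), Idi1 (0.44) and Fdft1 (0.43), enzymes of earlier steps, were higher, and Insig1, which holds the pathway back when sterols are plentiful, was lower (-0.28, SE 0.08). The call of Insig1 was lost without the richest cell (edgeR adjusted p = 0.0645).

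Of 24 genes of fatty acid and glycolipid synthesis 8 were higher and 4 lower. Ugt8a and Gal3st1, which make galactosylceramide and its sulfated form, were higher by 0.23 (SE 0.04) and 0.31 (SE 0.06) on the log2 scale. The elongase genes Elovl1 (0.32), Elovl5 (0.43) and Elovl7 (0.29) were higher, while Elovl6 (-0.27) and the desaturase gene Fads1 (-0.81) were lower. Of 28 genes of ion and metabolite transport 5 were higher and 7 lower.

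**Figure D3:**
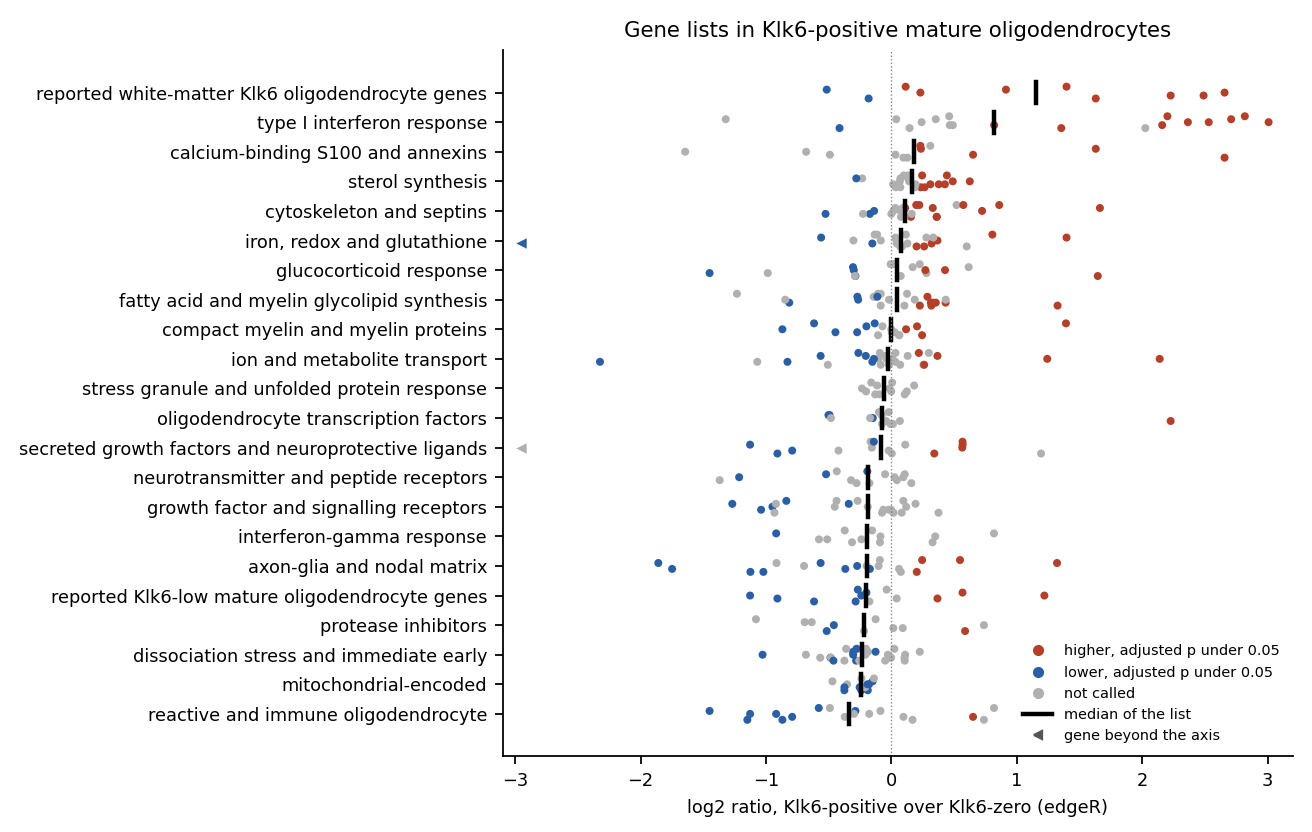
Each point is 1 gene's log2 ratio, Klk6-positive over Klk6-zero (horizontal axis), by gene list, coloured where the gene passed an edgeR adjusted p of 0.05; black bars are list medians, and arrowheads mark Nrn1 and Gsta4, which had no UMI in members and lie beyond the axis. The list of reported white-matter genes has the highest median, 1.15, and the reactive list the lowest, -0.34.

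Of 19 genes of axon-glia contact and the nodal matrix 8 were lower and 4 higher. The lower ones included the matrix genes Bcan (-1.02, from 15 and 7 UMIs), Vcan (-1.75, from 2 and 3) and Tnr (-1.86, from 5 and 5). These genes are also high in oligodendrocyte precursors, whose 6 markers, Vcan among them, were lower in the members, as given above. In the Foxp3-DTR- library Tnr and Bcan ranked 4 and 5 among the leading genes of a cluster, at 669.7 and 681 CPM. Its 75 cells passed the rule for mature oligodendrocytes and held 0 members. Gpr17 and Neu4, markers of differentiating oligodendrocytes, ranked 9 and 10 in it. The part of these cells in the list was not tested. Gjb1, a gap junction gene, stood at 544 against 348 CPM and 552 against 380.5 CPM, a log2 ratio of 0.55 (SE 0.05), while Gjc3 was lower (-0.17, SE 0.05). Lgi3 (-0.37) and Cntn1 (-1.12, from 35 and 28 UMIs) were lower. Of 21 growth factor and signalling receptors none was higher in edgeR's test and 5 were lower, among them the neuregulin receptor genes Erbb3 (-0.34, SE 0.10) and Erbb4 (-0.84, SE 0.14). Of 14 neurotransmitter and peptide receptors none was higher, and Gria2 (-1.21, from 19 and 8 UMIs), Gria4 (-0.52) and Gpr37 (-0.19) were lower. DESeq2 called fewer of these receptors lower, 1 of the 21 and 0 of the 14.

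Secreted factors went both ways, with 4 of 16 higher and 4 lower. Pdgfa, a growth factor for oligodendrocyte precursors, stood at 256 against 174 CPM and 252 against 157 CPM, a log2 ratio of 0.56 (SE 0.06). Csf1 (0.57, SE 0.11), a growth factor for microglia, and Fgf1 (0.34, SE 0.09) were higher, the latter not against matched cells (edgeR adjusted p = 0.10). Of 11 protease inhibitor genes Serpinb1a, an intracellular inhibitor of serine proteases, was higher at 783 against 507 CPM and 772 against 494 CPM and 0.59 (SE 0.04) on the log2 scale. Timp2, an inhibitor of metalloproteinases, was lower (-0.46, SE 0.06). The partners of Klk6 could hardly be measured: Klk5, Klk7, Klk8, Klk1, Klk13, Klk14, F2r, F2rl1 and F2rl2 had 0 UMIs in the members, and Klk10 had 2 and 0.

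Among iron, redox and glutathione genes 6 of 24 were higher and 3 lower. Fth1, ferritin heavy chain, stood at 30723 against 24552 CPM and 30887 against 25200 CPM, a log2 ratio of 0.26 (SE 0.03). Ftl1, ferritin light chain, was lower (-0.15, SE 0.04) but not against matched cells (edgeR adjusted p = 0.80). Prdx1 (0.32), which removes peroxides, and Gstm1 (0.80), a glutathione transferase gene, were higher.

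Stress lists were not higher. Of 28 immediate early and dissociation genes none was higher in edgeR's test and 8 were lower, with a median of -0.24, and against matched cells 15 were lower. Egr1, an immediate early gene, had a log2 ratio of -0.28 (SE 0.07), and of -0.62 against matched cells. Of 12 genes of stress granules and the unfolded protein response none passed in edgeR in either direction, with 2 lower at an unadjusted p under 0.05 and none called by DESeq2. Of 18 genes reported for reactive oligodendrocytes S100a6 was higher and 8 were lower, among them Il33, Cd9, Apoe and Cd63 (-0.58). Of 13 mitochondrially encoded genes 8 were lower, with a median of -0.24, but against matched cells 2 were, with a median of -0.09. Of 12 genes of the response to interferon-gamma H2-K1 was lower (-0.92, SE 0.25, from 18 and 15 UMIs) and none was higher. Where no gene of a list was called higher, the genes higher at an unadjusted p under 0.05 in edgeR were 2 of the immediate early list and 0 of the lists of receptors, mitochondrial genes and interferon-gamma, and DESeq2 called 0 higher in each. In the lower direction DESeq2 called 1 of the 28 immediate early, 4 of the 13 mitochondrial and 0 of the 12 interferon-gamma genes, fewer than edgeR in each. Of 16 genes of the glucocorticoid response 3 were higher and 4 lower.

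The type I interferon list rested on few cells. Of 19 tested genes 9 were higher and 1 lower, with a median of 0.82, but without the richest cell of each sum 2 of 11 were higher and the median was 0.06. In the Foxp3-DTR- library 1 member held 303 of the 969 UMIs of the list (31.3%), including all 55 of Ifit3 and 163 of 237 of Ifi27l2a. In the Foxp3-DTR+ library 1 member held 139 of 540 (25.7%), including all 41 of Isg15. Cells with at least 20 UMIs of the list, a number chosen after seeing the data, were 5 of 134 and 4 of 93 members, against 21 of 3423 and 19 of 2391 Klk6-zero cells, with the members deeper as given above.

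S100b and Pmp22 were higher in each class of cells with more Klk6 UMIs, while Il33, Opalin and Cd9 did not fall at each step in the Foxp3-DTR- library. In cells with 0, 1, 2 to 3, 4 to 7 and 8 or more Klk6 UMIs, S100b stood at 134, 430.4, 764, 884 and 1394 CPM in the Foxp3-DTR- library and at 128, 436, 683, 891 and 1802 CPM in the other. Over the same classes Pmp22 stood at 179, 405, 441, 522 and 603 CPM and at 185, 379, 434, 514 and 951 CPM. Il33 stood at 614, 417, 265, 282 and 219 CPM and at 613, 415, 347, 303 and 200.3 CPM, with the class of 4 to 7 above that of 2 to 3 in the Foxp3-DTR- library. Opalin stood at 1941, 1467, 1365, 1549.9 and 923 CPM and at 2144, 1663, 1450.4, 1338 and 844 CPM. Cd9 stood at 875, 534, 506, 551 and 544 CPM and at 619.5, 409, 348, 331 and 114 CPM. Cells with 1 Klk6 UMI thus lay between the Klk6-zero cells and the members for S100b, Pmp22 and Il33 in both libraries. The top class held 15 and 10 cells.

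**Figure D4:**
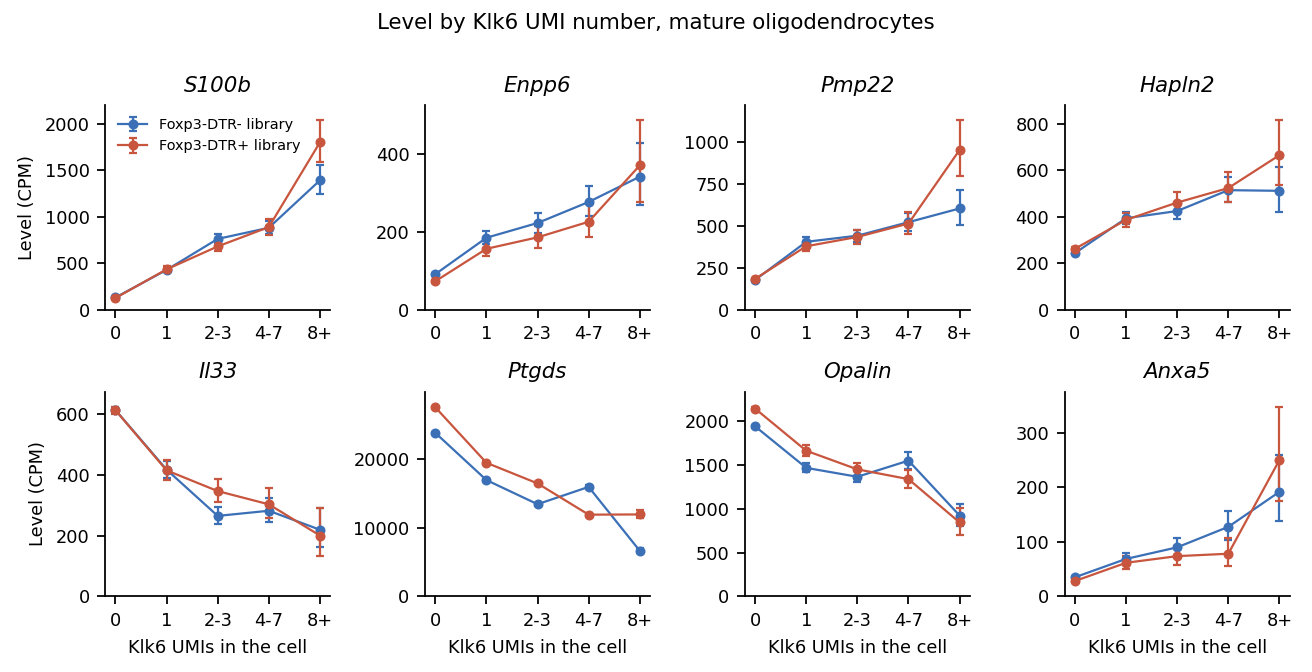
Level (CPM) of selected genes in mature oligodendrocytes with 0, 1, 2 to 3, 4 to 7 and 8 or more Klk6 UMIs, for the Foxp3-DTR- and Foxp3-DTR+ libraries; points are sums over cells and bars 95% Poisson intervals for counting error. S100b climbs from 134 and 128 to 1394 and 1802 CPM, and Il33 is lowest in the top class, at 219 and 200.3 CPM.

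Members also lay together when the mature oligodendrocytes of each library were clustered without the genes of the rule, Hapln2 and Anln. In the Foxp3-DTR- library 1 cluster of 846 cells, with S100b, Enpp6, Slco3a1 and Selenop as leading genes, held 103 of the 134 members (76.9%), which were 12.2% of its cells. In the Foxp3-DTR+ library 1 cluster of 487 cells, with S100b, Enpp6, Pmp22 and Selenop as leading genes, held 59 of the 93 members (63.4%), 12.1% of its cells. Most other members, 15.7% and 33.3%, lay in 1 cluster of each library with medians of 10690 and 16084 UMIs per cell. Its leading genes were the immediate early genes Fosb, Fos and Egr1, with Fos at 3109 against 549 CPM and 1728 against 898 CPM in the other cells. A Foxp3-DTR+ cluster with higher Fos, 4732 CPM in 275 cells, held 0 members. At a finer resolution of 1, the cluster of each library with Atf3, Fosb and Junb among its leading genes held 4 (2.99%) and 0 members. In deep clusters with medians of 17338 and 17499 UMIs lay 18 and 18 members. The leading genes made the clusters and are no test.

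Over single mature oligodendrocytes thinned to 2000 UMIs, the gene most like Klk6 by mean Spearman correlation was S100b, at 0.26 over 3653 cells and 0.26 over 2479 cells, among 7260 genes. The next were Pmp22 (mean 0.17), Enpp6 (0.17), Selenop (0.16), Apod (0.16), Plin3 (0.14), Gng11 (0.14), Uchl1 (0.13), Trf (0.13) and Fth1 (0.13). These weak values describe cells that share a library and sparse counts.

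The genotypes were then compared within Klk6-positive cells, as the ratio of the Foxp3-DTR+ to the Foxp3-DTR- library, without a test. Of 1835 genes at 100 CPM or more in either library, 0 (0.0%) were at least 2-fold higher and 8 (0.436%) at least 2-fold lower in the Foxp3-DTR+ members. The median log2 ratio was 0.06 in the members and 0.06 for the same genes in Klk6-zero cells. Of the 6 genes with the highest log2 ratio between members and Klk6-zero cells, S100b stood at -0.03 between the libraries (counting interval -0.13 to 0.07) and Pmp22 at 0.06 (-0.07 to 0.20), both with intervals that included 0. The other 4 were lower in the Foxp3-DTR+ members beyond counting error. Enpp6 stood at -0.23 (-0.42 to -0.03), with -0.32 in Klk6-zero cells. Plin3 (-0.57, -0.75 to -0.39), Selenop (-0.42, -0.52 to -0.33) and Ldhb (-0.44, -0.65 to -0.24) had larger differences, and in Klk6-zero cells they stood at -0.33, -0.27 and 0.02. Among the genes that were low in members, Il33 stood at 0.27 (0.10 to 0.44) in the members and at 0.00 in Klk6-zero cells, and Cd9 at -0.70 (-0.85 to -0.55) and -0.50.

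Of the 8 genes past 2-fold, most had like ratios in other cells. Gstp1, a glutathione transferase gene, stood at 63.2 CPM in the Foxp3-DTR+ and 225 CPM in the Foxp3-DTR- members, a log2 ratio of -1.83, with -2.17 in Klk6-zero cells and -1.91 in gated astrocytes. Gstp-ps (-1.06) is a near-identical copy of Gstp1, reads can be split between them, and both values are uncertain. Ubb, a polyubiquitin gene, stood at 789 against 1779.9 CPM, a log2 ratio of -1.17, with -1.13 in Klk6-zero cells, -1.11 in astrocytes and -1.11 in endothelial cells. Rpl38 (-1.14), Rpl35 (-1.0), both ribosomal protein genes, and Mir6236 (-1.27) stood at -0.97, -0.96 and -0.90 in Klk6-zero cells and at -1.02, -1.21 and -0.77 in astrocytes. Ubb and these 3 genes were thus lower in the Foxp3-DTR+ library in each of the 4 cell groups measured. Ribosomal protein genes as a group stood near 0, with a median of -0.03 over 76 genes, 42 of them below 0.

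Much of the signal of the other 2 of the 8 genes lay in single cells. Ttr stood at -4.61, and at -1.99 without its richest cell in each library, with -1.71 in Klk6-zero cells. Ifi27l2a, an interferon-induced gene, stood at -1.50 with 68.8% and 47.5% of its UMIs in 1 cell of each library, and at -0.76 without those cells. The genes with the highest ratios were below 2-fold. Mapk8ip3, a scaffold of kinases and kinesin, was at 119.7 against 66.0 CPM, a log2 ratio of 0.86 (0.54 to 1.17), with 0.35 in Klk6-zero cells. It was followed by mt-Atp6 (0.82, with 1.06 in Klk6-zero cells), Mink1 (0.74), Prkcsh (0.72), Chd6 (0.70), Tspyl4 (0.67), Eif3d (0.66) and Vgll4 (0.66).

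**Figure D5:**
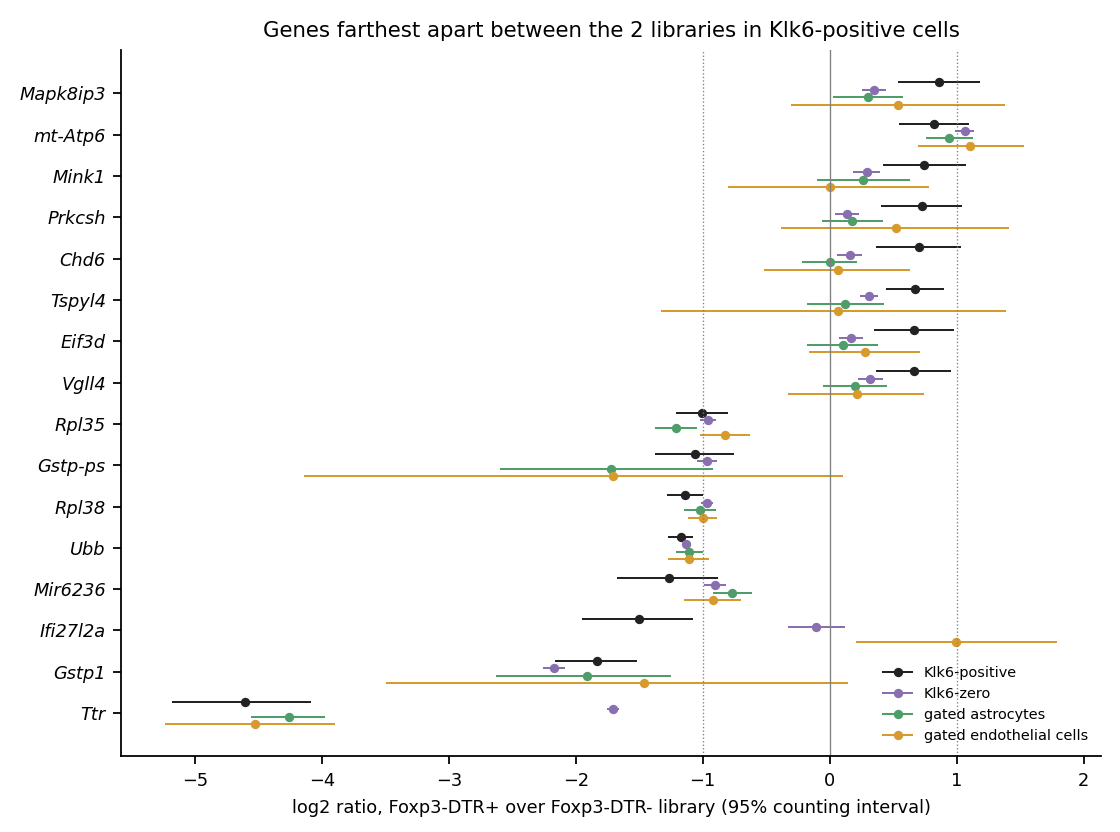
log2 ratio of the Foxp3-DTR+ over the Foxp3-DTR- library (horizontal axis) for the 8 highest and 8 lowest genes in Klk6-positive cells, with the same ratio in Klk6-zero cells, gated astrocytes and gated endothelial cells; points are ratios of CPM, bars 95% counting intervals and dotted lines 2-fold. Ubb lies at -1.17, -1.13, -1.11 and -1.11 in the 4 groups, while Ifi27l2a lies at -1.50 in Klk6-positive and -0.10 in Klk6-zero cells.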

How the data were processed

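Single-cell RNA libraries of hippocampal CD45- Thy1- cells were analysed from the raw UMI count matrices the authors deposited. Per the submitters' processing notes, Cell Ranger 6.1.0, Seurat and mm10 were used, and the annotation release is not given in the sources used here. The matrices held 53484704 and 35814655 UMIs. Of 55487 gene IDs, 55141 matched GENCODE M21. From the counts, cells were filtered and gated as the report states. UMIs were summed by library and Klk6 group and fitted with edgeR 4.0.16 in R 4.3.3 (TMM, filterByExpr, quasi-likelihood, library as block, Benjamini-Hochberg), with 1 residual degree of freedom, since both sums of a library share animals and preparation. The genotypes have 1 library each, so that counting intervals (95%) replace tests there. Clustering used Scanpy 1.11.5 (2000 variable genes, 20 components, 15 neighbours, Leiden resolution 0.5). The members and gene lists were chosen with earlier results of these data known. Named genes were the 15 highest and 15 lowest calls at 100 CPM or more in the higher group of both libraries and with 1 direction in both, plus the 8 highest and 8 lowest between libraries. The fit was tested on counts simulated from 1 shared profile at a dispersion of 0.000838, without library effects or uneven cells. It called 61 of 98 2-fold and 89 of 98 4-fold changes, with 6 false calls. In the data 97 called genes had over 25% of the member UMIs of a library in 1 cell. The simulation did not cover such genes and does not measure the error of their calls. Alternatives covered depth, cutoffs, scaling, filter, block and DESeq2 1.42.0. Some genes of the lists are not reported here by name.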

Additional observations from a re-analysis of the deposited data

Results flagged for a closer look

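Cells with exactly 1 Klk6 UMI, which enter neither side of the comparison, carried S100b at 430.4 CPM in the Foxp3-DTR- and 436 CPM in the Foxp3-DTR+ library, above 134 and 128 CPM in Klk6-zero cells. Cells with 2 or more Klk6 UMIs that the rule left out numbered 13 and 6, each through a UMI of Pdgfra, Aqp4 or Cldn5.

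mt-Rnr1, a ribosomal RNA of the mitochondrion, had a log2 ratio between libraries, Foxp3-DTR+ over Foxp3-DTR-, of -0.13 (counting interval -0.20 to -0.05) in Klk6-positive cells and of 0.18 (0.16 to 0.20) in Klk6-zero cells, in opposite directions. The counting interval of the difference was -0.38 to -0.23, and the difference was not tested over samples, since each genotype has 1 library. Of the 1835 genes at 100 CPM or more, 241 had a counting interval of this difference clear of 0. The log2 ratio of mt-Rnr1 between members and Klk6-zero cells also moved with depth, from -0.59 to -0.13 against cells matched in UMIs, and the part of depth in the difference between libraries was not tested.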

How the results depend on the processing

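The share of Klk6-positive cells followed the cutoff and the depth: it was 7.91% and 8.18% at 1 or more Klk6 UMIs, 1.51% and 1.5% at 4 or more, 2.02% and 2.04% in cells of 4000 to 10000 UMIs (a range added after seeing the data), 1.43% and 1.48% thinned to 4000 UMIs and 0.630% and 0.807% thinned to 2000 UMIs. The counts of genes higher and lower (523 and 420) were 637 and 495 against matched cells, 642 and 409 without the richest cell, 229 and 177 with Klk6 at 4 or more UMIs, 227 and 259 at 4000 to 10000 UMIs, 121 and 126 thinned to 2000 UMIs, 127 and 91 in DESeq2, and 346 and 467 without the filter on low counts. Both sums of a library are paired by their animals, and with no replicate block 109 genes were higher and 45 lower. These counts rest on unlike totals of genes. The main fit tested 12479, matched cells 10916, no richest cell 12060 and Klk6 at 4 or more UMIs 12588. The range of 4000 to 10000 UMIs tested 10794 and thinning to 2000 UMIs 9545, while 24676 entered DESeq2 and the fit without the filter. Among the 30 named genes none changed direction in the alternatives run, and 5 lost their call without the block and 1 each in DESeq2, at 4000 to 10000 UMIs and thinned to 2000 UMIs. By over 1.5 times, 18 of them were further from level at 4000 to 10000 UMIs and 5 thinned to 2000 UMIs. Ttr lost its call in DESeq2 (adjusted p = 0.78) and without the block (edgeR adjusted p = 0.57). Between libraries, 2 genes were 2-fold higher with Klk6 at 4 or more UMIs, and thinned to 2000 UMIs 38 were higher and 33 lower. The number of genes compared in these settings is not reported here, so that these counts have no share beside them. The cause of these changes was not tested. Intervals cover counting error only, and 134 and 93 cells limit what could be seen in genes of few UMIs.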
